A study of Mus musculus with 4 samples.

Results

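The regions described here are stretches of accessible chromatin that were called in DN3 thymocytes and not in naive CD4 T cells, and that lie inside the bodies of protein-coding genes away from the gene ends. Accessibility had been measured by ATAC-seq, in which the Tn5 transposase cuts and tags open DNA. The 4 libraries were 1 each of DN3 thymocytes from Scd1-deficient mice, DN3 thymocytes from control littermates, splenic naive CD4 T cells from Scd1-deficient mice and splenic naive CD4 T cells from control littermates. Scd1 encodes the stearoyl-CoA desaturase, which makes monounsaturated fatty acids. No mouse had been treated. The titles mark the controls HZ without explaining it, the part of Scd1 that was removed is not described, and the number of animals behind each library is not given. DN3 cells lack lineage markers, CD4, CD8 and CD44 and carry CD25, and were enriched by magnetic depletion before flow sorting, whereas naive CD4 T cells came from a bead kit. The peaks of all 4 lists on chromosomes 1 to 19 and X were merged into 90270 union regions wherever they shared at least 1 bp. The members were chosen by these calls: a union region had to hold a peak of both DN3 lists and of neither naive list, overlap the body of a protein-coding gene of the RefSeq annotation (GRCm38.p6, the assembly of mm10), and lie more than 1 kb from every annotated gene end. This gave 12442 members, 13.8% of all union regions. Because the calls made the choice, their restriction to DN3 is a description and not a result, and no test of it is given. Within a cell type each genotype is 1 library, so the genotypes have no replicates either.

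DN3 thymocytes are the stage at which T cell precursors rearrange the T cell receptor beta locus under Notch signalling and are selected through the pre-T cell receptor, while genes of the earlier multipotent progenitor are being closed down. Naive CD4 T cells have completed this path, carry a mature receptor and are quiescent. Accessible regions inside genes, away from promoters, are often enhancers, but they can also be start sites of shorter transcripts, insulators or other elements, and the gene that holds an element need not be the gene it acts on. Exons and introns were not annotated here.

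A small group of the members lay over start sites of shorter transcripts, and for these the DNA itself can be shown. RefSeq start sites were taken as internal when they lay more than 1 kb from every gene end, and 3803 were. Members covered 175 of them, or 4.6%, and 157 members in all, or 1.26%, covered at least 1. The 7 windows printed here belong to the strongest members whose summits lay inside the window in both DN3 lists, and they were picked with their values known. Each runs from 250 bases before to 50 bases after the start site, 5′ to 3′ on the strand of the gene, from RefSeq (GRCm38.p6). Adra1b, an adrenergic receptor, has its window at chr11:43836440-43836739 on the minus strand. Dab2, an adaptor of endocytosis, has it at chr15:6386498-6386797 on the plus strand. Ptpre, a receptor-type tyrosine phosphatase, has it at chr7:135593231-135593530 on the plus strand, and Lifr, the receptor of leukaemia inhibitory factor, at chr15:7129322-7129621 on the plus strand. Cyp2j6, a cytochrome P450, has it at chr4:96553602-96553901 on the minus strand, and Shroom3, an actin-binding protein, at chr5:92897743-92898042 on the plus strand. Syk, a tyrosine kinase used by the pre-T cell receptor, has it at chr13:52596632-52596931 on the plus strand. Capitals mark matches, on either strand, to letters that RUNX factors (TGTGGT), ETS factors (CCGGAA), E proteins (CAGCTG and CACCTG), TCF factors (CTTTGA), zinc finger factors of the GATA family (AGATAA), the Notch partner RBPJ (TGGGAA), the factor AP-1 (TGACTCA) and the KLF family (GGGTGTG) are known to bind.
Adra1b: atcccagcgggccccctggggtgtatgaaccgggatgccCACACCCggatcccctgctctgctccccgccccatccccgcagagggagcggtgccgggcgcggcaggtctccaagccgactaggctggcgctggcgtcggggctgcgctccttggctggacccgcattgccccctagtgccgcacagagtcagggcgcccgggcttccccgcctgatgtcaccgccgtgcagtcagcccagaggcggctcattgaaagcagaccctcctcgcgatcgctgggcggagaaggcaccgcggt
Dab2: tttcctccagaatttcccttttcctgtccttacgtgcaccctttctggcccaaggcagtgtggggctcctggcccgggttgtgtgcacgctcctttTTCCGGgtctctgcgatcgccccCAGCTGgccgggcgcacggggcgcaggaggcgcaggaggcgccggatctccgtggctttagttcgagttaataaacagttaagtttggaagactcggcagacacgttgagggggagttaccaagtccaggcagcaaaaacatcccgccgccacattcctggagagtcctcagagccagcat
Ptpre: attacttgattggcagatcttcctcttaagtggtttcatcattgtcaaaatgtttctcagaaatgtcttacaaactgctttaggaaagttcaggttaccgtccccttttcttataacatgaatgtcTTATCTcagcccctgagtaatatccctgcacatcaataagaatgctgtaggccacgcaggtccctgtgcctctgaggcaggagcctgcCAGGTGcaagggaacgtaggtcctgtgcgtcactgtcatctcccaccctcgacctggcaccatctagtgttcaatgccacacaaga
Lifr: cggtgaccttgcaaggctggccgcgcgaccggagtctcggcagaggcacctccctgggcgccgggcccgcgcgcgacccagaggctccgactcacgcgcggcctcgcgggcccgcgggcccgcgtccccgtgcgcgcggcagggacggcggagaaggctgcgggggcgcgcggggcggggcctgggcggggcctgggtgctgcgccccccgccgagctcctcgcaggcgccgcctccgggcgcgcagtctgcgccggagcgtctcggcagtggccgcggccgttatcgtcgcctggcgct
Cyp2j6: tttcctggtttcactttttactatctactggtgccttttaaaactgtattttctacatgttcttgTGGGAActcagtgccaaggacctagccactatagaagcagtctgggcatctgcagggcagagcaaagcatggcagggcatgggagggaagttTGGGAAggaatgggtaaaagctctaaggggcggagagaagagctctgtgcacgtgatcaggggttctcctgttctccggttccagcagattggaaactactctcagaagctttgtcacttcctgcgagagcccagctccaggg
Shroom3: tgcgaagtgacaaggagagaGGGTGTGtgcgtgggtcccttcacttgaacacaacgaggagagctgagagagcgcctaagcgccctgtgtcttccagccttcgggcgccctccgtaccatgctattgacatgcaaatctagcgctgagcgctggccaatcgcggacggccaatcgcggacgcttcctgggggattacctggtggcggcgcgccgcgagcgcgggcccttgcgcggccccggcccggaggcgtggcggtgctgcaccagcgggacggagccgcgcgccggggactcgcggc
Syk: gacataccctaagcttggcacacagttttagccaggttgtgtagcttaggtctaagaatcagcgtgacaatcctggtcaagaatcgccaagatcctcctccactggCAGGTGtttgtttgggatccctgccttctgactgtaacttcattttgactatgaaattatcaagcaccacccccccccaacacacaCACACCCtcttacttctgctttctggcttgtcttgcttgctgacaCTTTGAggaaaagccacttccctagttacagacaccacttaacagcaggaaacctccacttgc

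The windows differed in composition. That of Lifr held 53 CpG dinucleotides at 81.3% GC and none of the letters searched. Those of Syk and Cyp2j6 held 2 and 4 CpG at 48% and 50.3% GC. The Dab2 window held an ETS match and CAGCTG, the Ptpre window CACCTG and a GATA match, the Cyp2j6 window 2 RBPJ matches, and the Syk window CACCTG, TCF and KLF matches. Over the 175 windows under members, CAGCTG stood in 23.4% and CACCTG in 25.1%, beside 16.4% and 20.3% of all 32619 RefSeq start windows, and beside 15.3% and 20.8% of the 1087 internal windows under regions called in all 4 lists. TCF letters stood in 5.71% under members, 16.0% of all windows and 11.8% under regions called in all 4 lists, and GATA letters in 5.14%, 11.2% and 6.99%. ETS letters stood in 13.1%, 15% and 20.7%, RUNX letters in 15.4%, 16.6% and 13.8%, RBPJ letters in 24.6%, 25.4% and 24.1%, AP-1 letters in 5.14%, 5.22% and 4.14%, and KLF letters in 10.3%, 8% and 7.36%. The median GC content was 58%, 53% and 60%. A match is only the presence of these letters in the window, and windows of 1 gene can overlap. Both DN3 summits of the member lay inside the window in 67 of the 175, so the shares do not describe the centres of the members.

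The choice of these members fixed a call at the inner start in both DN3 lists, while the outer 5′ end of their genes was not part of it. The deposited −log10 q of a peak, which measures its strength within its own list, was 137 in Scd1-deficient and 138 in control DN3 cells for the Adra1b member, with no peak at the outer 5′ end in any list. It was 95 and 102 for the Dab2 member, 102 and 100.1 for Lifr and 80.0 and 84.4 for Cyp2j6, and their outer 5′ ends had no peak in any list either. Syk differed from these in having a peak at its outer 5′ end in all 4 lists, with 168 in Scd1-deficient and 190.2 in control DN3 cells and 25.4 and 21.4 in Scd1-deficient and control naive cells. Its inner start, 14.3 kb downstream, had 66.8 and 74.0 in Scd1-deficient and control DN3 cells and no naive peak. The Ptpre member, 55.7 kb from the outer 5′ end, had 112 and 100.9, and that end was likewise called in all 4 lists. The Shroom3 member, 215 kb from the outer 5′ end, had 73.6 and 112, and that end was weakly called in both DN3 lists (11.1 and 14.4) and in Scd1-deficient naive cells (3.25). Over 155 combinations of a gene with such a member, the outer 5′ end was called in both DN3 lists in 72, in both naive lists in 42 and in no list in 76. The same counts were not made over all genes, so whether they are unusual was not tested. Of the 13604 regions inside genes called in all 4 lists, 6.78% covered an internal start, beside the 1.26% of members. Those regions were also wider, with a median of 1026 bp beside 599.5 bp, and the shares were not matched for width.

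The DN3 lists were longer than the naive lists, which bears on every count of members. On the compared chromosomes they held 76437 peaks in Scd1-deficient and 76814 in control DN3 cells, beside 51297 and 46576 in Scd1-deficient and control naive cells. When each list was kept to its 46576 strongest peaks, 5000 members remained by the same rule, and the mirror class, called in both naive lists and in neither DN3 list inside genes, held 4981 in place of 2549. The larger number of members than of naive-restricted regions inside genes was therefore not seen with lists of equal length. Absence of a naive peak means that none passed the peak caller, not that the chromatin was closed, and in a bulk library fewer open cells and less opening per cell cannot be told apart. Gene-end calls at markers are read beside those of all genes, which were 66.5% and 66.7% in Scd1-deficient and control DN3 cells and 58.6% and 57.0% in Scd1-deficient and control naive cells. All 12 DN3 markers had one in both DN3 lists, and 9 and 8 in Scd1-deficient and control naive cells, where Rag2, Lmo2 and Ptcra had none in either. All 10 naive CD4 markers had one in every list and so did not set the cell types apart. Of other cell types, 4 and 4 of 7 B cell, 5 and 4 of 7 myeloid, 3 and 3 of 4 NK, 2 and 2 of 4 erythroid and 3 and 4 of 5 stromal markers were called in Scd1-deficient and control DN3 cells, and 3, 4, 2, 2 and 2 in each naive library in the same order. Several of these shares are near those of all genes. Ms4a1 and Csf1r had no gene-end call in any library. The part of other cells in the members was not tested.

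The members were of moderate strength and small width. The −log10 q of a member was 17.0 at the median in the Scd1-deficient list and 19.9 in the control list, and the fold of its peak over local background was 5.42 and 5.75. Values ran up to a −log10 q of 338 and 346. Regions inside genes called in all 4 lists had a median −log10 q of 49.7 and 54.4 and a fold of 7.92 and 8.08 in the same DN3 lists. Only 6.22% and 6.44% of the members were among the strongest 25% of their list, beside 31.0% and 31.4% of those regions. Members had to lack a naive call and those regions had to be called in every list. The difference in strength was therefore partly built in by the choice. DN3-restricted regions elsewhere were alike in strength, with medians of 17.5 and 20.5 at gene ends and 17.0 and 19.2 between genes. Both DN3 lists had a −log10 q of at least 10 at 8228 members (66.1%) and of at least 100 at 447, and 84 members fell under 2 in either list. The members covered 8.35 Mb with a median width of 599.5 bp.

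The rule placed peaks of both DN3 lists in the same region, which limits how far apart the summits of the 2 genotypes could lie. Their closeness is therefore a description. The distance between the Scd1-deficient and the control summit had a median of 26 bp and was within 50 bp for 69.7% of members and within 100 bp for 86.8%. For the stronger regions inside genes called in all 4 lists it had a median of 12 bp. The members lay a median of 12.6 kb from the nearest gene end and 9.90 kb from the nearest naive peak, and 6262 (50.3%) had a naive peak within 10 kb. For 775 members (6.23%) it was within 1 kb.

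Of the 25536 regions called in both DN3 lists and in neither naive list, 48.7% lay inside genes as defined here (95% Wilson interval 48.1% to 49.3%, counting error only), 15.8% at gene ends and 35.5% between genes. Regions called in all 4 lists were split differently, with 36.4% inside genes, 38.9% at gene ends and 24.8% between genes. Naive-restricted regions had 55.3% inside genes and 9.76% at gene ends. Restricted regions of either cell type lay inside genes more often, and at gene ends less often, than regions called in all 4 lists. Regions called only in the Scd1-deficient or only in the control DN3 list had 50.5% and 50.9% inside genes and 11.7% and 12.1% at gene ends. The split was thus not particular to restricted regions.

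The members were spread over 5473 of 21631 protein-coding genes, or 25.3%. A single member was held by 2955 genes, 2 or 3 by 1650, 4 to 7 by 635 and 8 or more by 233, and these last held 2612 members (21.0%). Long genes held members more often: 2.74% of genes up to 10 kb, 25.5% of those from 10 to 50 kb, 58.2% of those from 50 to 200 kb and 68.8% of longer ones. The density over all gene bodies was 1.20 members per 100 kb, beside 1.32 regions called in all 4 lists and 0.246 naive-restricted regions.

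The 10 genes with most members encoded chromatin and transcription regulators, kinases, and proteins of signalling and cell shape. Gse1, a protein of histone deacetylase complexes, held 30. Hivep3, a zinc finger transcription factor, and Maml3, a mastermind-like coactivator of Notch, held 25 each. Arid1b, a subunit of the BAF remodelling complex, Prkca, protein kinase C alpha, and Zfhx3, a homeobox transcription factor, held 23 each. Arhgap26, a GTPase-activating protein, Ephb2, a receptor of ephrin B ligands, and Frmd4a, a scaffold of cell polarity, held 22 each, and Tshz2, a zinc finger transcription factor, held 21. All are long, from 189 kb (Ephb2) to 775 kb (Arhgap26).

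**Figure D1:**
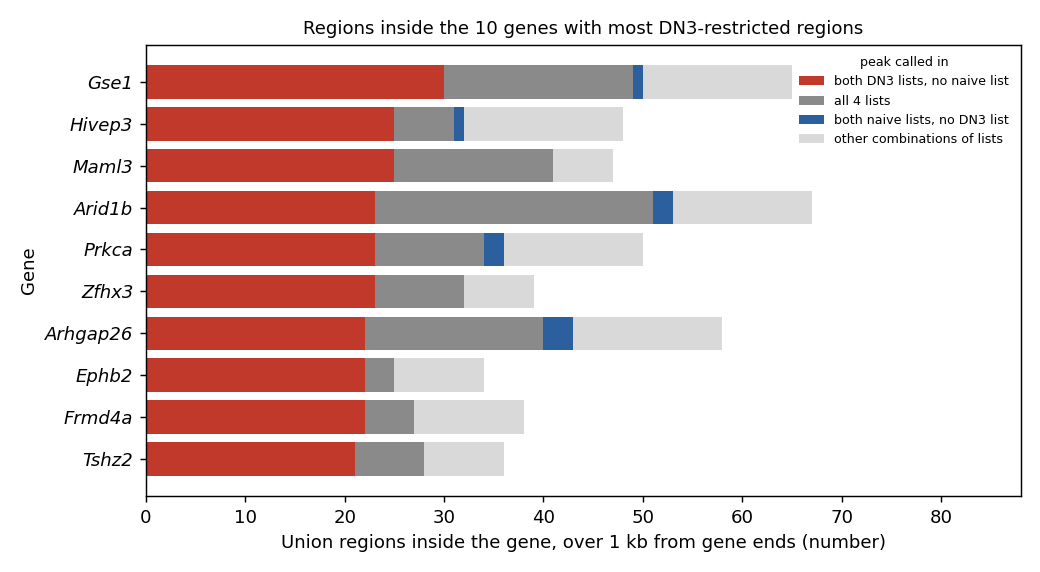
Number of union regions inside each of the 10 genes with most DN3-restricted regions (x axis), split by the lists that called them; genes run down the y axis. Gse1 held 30 DN3-restricted regions beside 19 called in all 4 lists and 1 naive-restricted region, whereas Ephb2 held 22 beside 3 and 0.

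These genes differed in what else they held. Arid1b had more regions called in all 4 lists (28) than members, and Gse1 (19), Arhgap26 (18) and Maml3 (16) had many. Ephb2 had 3, Frmd4a 5, Hivep3 6 and Tshz2 7, so that most of their regions called in both DN3 lists were members. Naive-restricted regions inside them numbered 0 in Maml3, Zfhx3, Ephb2, Frmd4a and Tshz2 and at most 3, in Arhgap26. Members also followed each other without a region called in a naive list between them. In Frmd4a 16 members in a row spanned 272 kb, in Ephb2 14 spanned 81.5 kb and in Hivep3 12 spanned 109 kb. The longest such run was in Gfra1, a receptor of GDNF family ligands, with 17 members over 134 kb, and 61 genes had a run of at least 8.

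**Figure D2:**
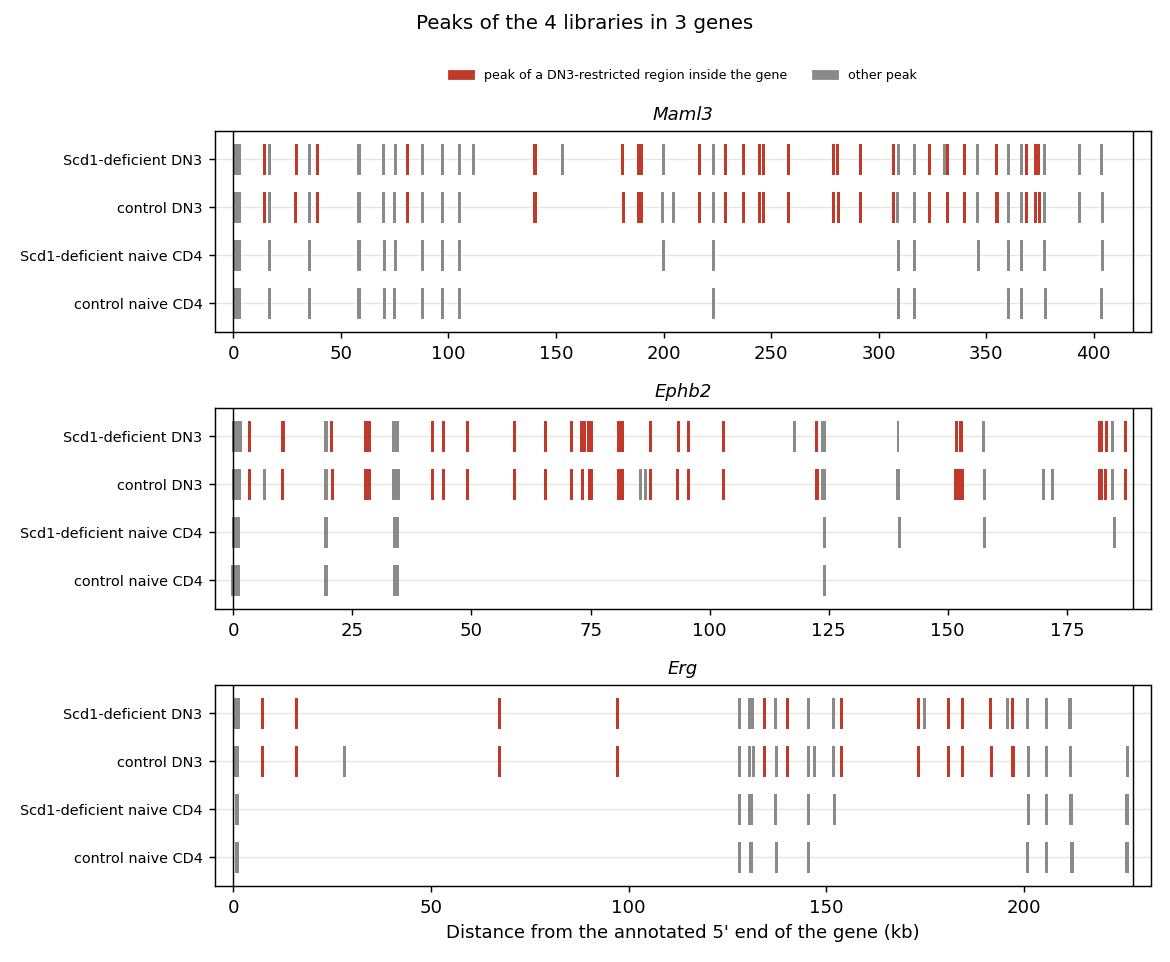
Peaks of the 4 libraries (rows) along Maml3, Ephb2 and Erg by distance from the annotated 5′ end in kb (x axis); red bars are peaks of DN3-restricted regions inside the gene, grey bars all other peaks, vertical lines the gene ends, and narrow peaks are drawn at a minimum width. The 3 genes were picked with their values known; the 25, 22 and 12 members are present in both DN3 rows and absent from both naive rows by the rule.

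The members of 1 gene spanned a wide range of strengths. In Maml3 the −log10 q ran from 5.39 to 157 in Scd1-deficient and from 5.40 to 182 in control DN3 cells. The strongest Maml3 member, chr3:52076353-52076895, lay 28.7 kb from the 5′ end with a fold of 13.1 and 13.8. In Hivep3 the medians were 26.4 and 29.5 and 22 of 25 members reached 10 in both lists, the highest share among these genes. Its strongest member, chr4:119896595-119898002, had 139 and 163 and lay 49.5 kb from the nearest naive peak. The strongest Zfhx3 member, chr8:108424070-108425033, had 200.4 in Scd1-deficient and 181 in control DN3 cells. Arid1b stayed lowest, with no member above 47.3 in Scd1-deficient or 50.7 in control DN3 cells.

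**Figure D3:**
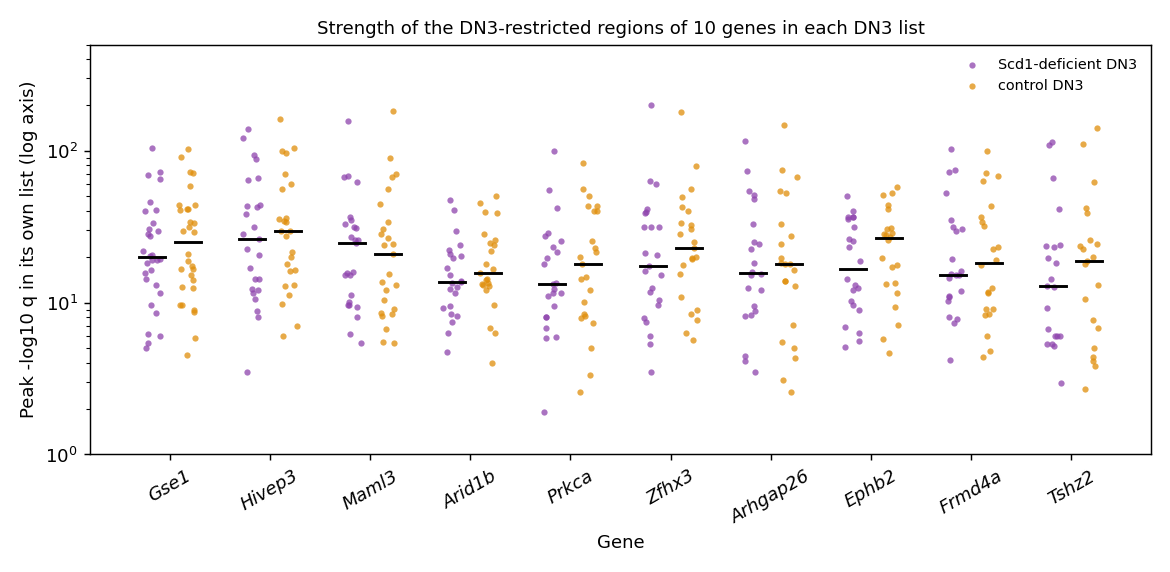
Deposited −log10 q (y axis, log scale) of every DN3-restricted region inside the 10 genes with most of them (x axis), in the Scd1-deficient DN3 list (purple, left) and the control DN3 list (orange, right); black lines are medians. The ranges of both lists overlap in every gene, and values belong to their own list, so the heights of the colours are not a comparison of genotypes.

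Per length, the densest genes were short, which a ranking by density favours, and several are known from other tissues. Among genes with at least 4 members, Atp2a1, the calcium pump of fast muscle, had 4 members in 17.2 kb, or 23.2 per 100 kb. Their −log10 q was 139, 47.4, 14.6 and 34.6 in Scd1-deficient and 174, 52.9, 29.6 and 24.2 in control DN3 cells, so that 1 strong region stood with 3 weaker ones. Tbx4, a T-box factor of the hindlimb, had 5 members (16.8 per 100 kb), with 49.7 and 65.1 at the strongest, and its ends were called in no library. Rtn4r, a receptor of myelin inhibitors, had 4, of which chr16:18143887-18144836 reached 196 and 226 while the others were weak, with medians over the gene of 12.8 and 9.11. Espnl (15.3 per 100 kb), Htra3 (14.4), Tmem242 (13.6), Hic2 (13.4), Spns2, the exporter of sphingosine 1-phosphate (13.0), and Asap3 (12.4) followed. Myb, a transcription factor of progenitors and thymocytes, had 5 members (13.9 per 100 kb) and no region called in all 4 lists inside, but all 5 were weak, from 2.76 to 10.3 in Scd1-deficient and from 3.55 to 10.5 in control DN3 cells.

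Most of the strongest members lay in genes that held few others. The Acot12 member, chr13:91753543-91754345, in the gene of an acyl-CoA thioesterase, had a −log10 q of 334 in Scd1-deficient and 346 in control DN3 cells, and its summit fell on the same base in both. The Micu2 member, chr14:57971924-57972701, in a regulator of mitochondrial calcium uptake, had 338 and 327, and it was the gene's single member. Helz, an RNA helicase, had 310 and 306 at chr11:107643819-107645116, with 10 members in all. The next were in BC034090 (335 and 306), Crispld2 (307 and 309), Gng4, a G protein subunit (290.1 and 291), Rxra, the retinoid X receptor alpha (272 and 277), Syt13 (284 and 260) and Zfand4 (265 and 260). Each of these was at least 7.28 kb from the nearest naive peak.

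The other genes of pathways that matter at this stage were counted by list. A list is described by how many of its genes held a member, read beside the 25.3% of all genes, and by members per 100 kb of gene body, read beside 1.20, since long genes hold more. That value differs by length: 0.701 in genes up to 10 kb, 1.45 from 10 to 50 kb, 1.52 from 50 to 200 kb and 0.830 above. The lists were not matched for length. Of 19 lists, 16 were above all genes per 100 kb. Of these, the naive homing (1.48), Wnt (1.29) and T helper (1.24) lists lay under the 1.52 of genes from 50 to 200 kb. Regions called in all 4 lists were also dense in most of the 16. With lists of equal length 14.1% of all genes held a member, and the count fell by over 1.5 times in 12 lists. The progenitor and myeloid lists have their counts beside their members, and in the others members were held by 8 of 26 T lineage transcription factor genes, 11 of 30 T cell receptor signalling genes, 14 of 30 PI3K, small GTPase and adhesion genes and 7 of 29 fatty acid synthesis genes. They were held by 3 of 11 CD8, CD4 and double-positive genes, 6 of 31 cytokine receptor genes, 4 of 20 naive homing genes, 6 of 27 Wnt genes, 2 of 29 T helper genes and 0 of 24 housekeeping genes. No set test was run, and membership of these lists was fixed with results of these data known.

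**Figure D4:**
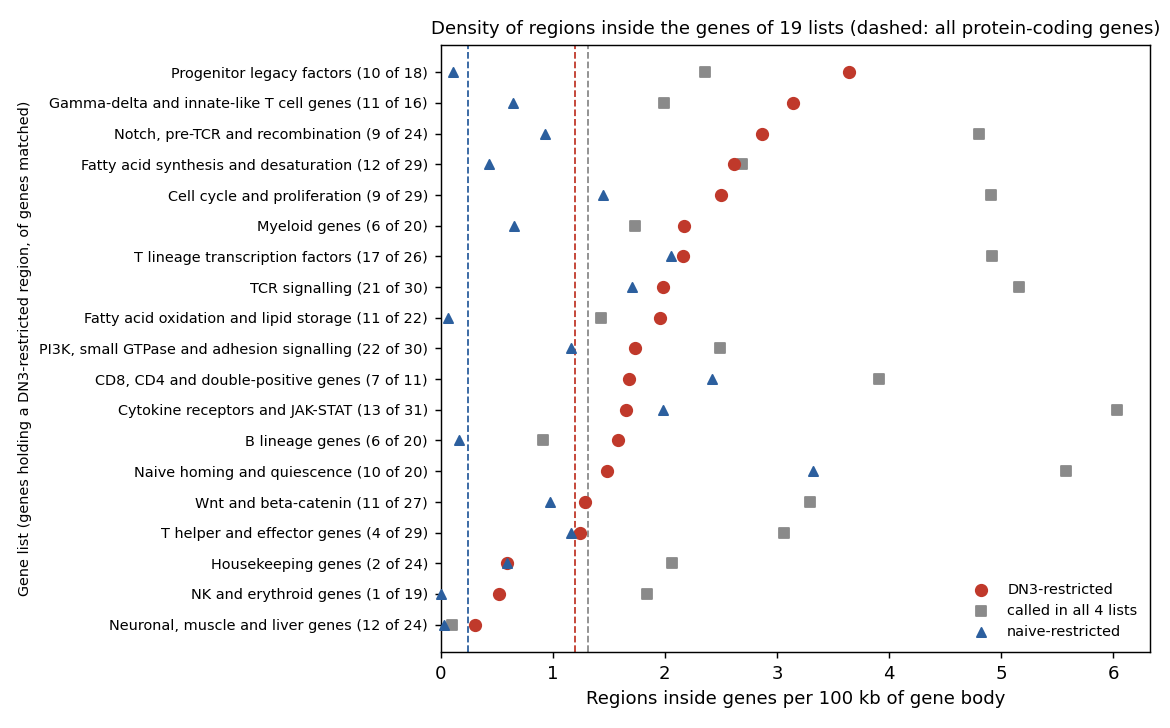
Regions inside genes per 100 kb of gene body (x axis) for 19 gene lists (y axis, with the genes holding a DN3-restricted region of those matched): red circles are DN3-restricted regions, grey squares regions called in all 4 lists, blue triangles naive-restricted regions, and dashed lines the same over all protein-coding genes (1.20, 1.32 and 0.246). DN3-restricted density was highest for progenitor factors (3.64) and lowest for neuronal, muscle and liver genes (0.305).

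Of the Notch, pre-T cell receptor and recombination genes, 9 of 24 held members (37.5%), at 2.87 per 100 kb. Of the coactivators, Maml3 held 25 and Maml2 4, which is 0.969 per 100 kb in Maml2. Of the receptors, Notch2 held 7, with −log10 q of 81.9, 39.9, 64.2, 23.1, 23.0, 6.84 and 6.70 in Scd1-deficient and 82.0, 64.3, 54.9, 28.5, 20.1, 11.5 and 10.5 in control DN3 cells. Notch1 and Notch3, the receptors best known in thymocytes, held 1 each. The Notch3 member, chr17:32163879-32164971, lay 2.47 kb from the 5′ end with 242 and 247, but a naive peak lay only 0.484 kb away. The Notch1 member had 21 and 12, beside medians of 17.0 and 19.9 over all members. Rbpj, the DNA-binding partner of Notch, held 3 members with 97.7, 36.9 and 8.08 in Scd1-deficient and 102, 66.9 and 7.43 in control DN3 cells. The gene ends of Rbpj were called in both DN3 lists and in neither naive list. Its body was not free of naive peaks, as one lay inside it 10.4 kb from the strongest member. Dtx1, a Notch target, and Heyl, a Notch-induced repressor, held 2 each and Cd247, the zeta chain, 1. Rag1, Rag2 and Ptcra are short and held none.

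Progenitor factors had the highest density, with 10 of 18 genes holding 34 members at 3.64 per 100 kb. With lists of equal length 4 of the 18 held a member. The same genes had 2.36 regions called in all 4 lists and 0.107 naive-restricted regions per 100 kb. Erg, an ETS factor of stem cells that is switched off as T cells mature, held 12. Its 2 strongest, chr16:95432421-95433195 and chr16:95405451-95406139, had 181 and 116 in Scd1-deficient and 176 and 129 in control DN3 cells, and the other 10 ranged from 4.51 to 29.2 and from 7.30 to 36.8. The 5′ end of Erg was called in all 4 lists, with 90.5 and 110 in Scd1-deficient and control DN3 cells. In Scd1-deficient and control naive cells that end had 54.8 and 31.0. Several regions inside Erg were called in all 4 lists as well. Kit, the stem cell factor receptor, held 3 with 50.01, 42.7 and 14.1 in Scd1-deficient and 58.4, 44.3 and 16.0 in control DN3 cells, and no region inside Kit was called in all 4 lists. Gfi1b, a zinc finger repressor of early blood cells, held 3 within 12.5 kb with 40.2, 21.1 and 8.03 in Scd1-deficient and 34.3, 14.5 and 13.6 in control DN3 cells. Meis1, a homeobox factor of stem cells, held 3, the strongest 57.3 and 79.4 and 60.4 kb from the nearest naive peak. Bcl11a and Flt3 also held 3 each, with at most 12.7 and 17.7 in Scd1-deficient and 11.3 and 11.4 in control DN3 cells. Lmo2 and Spi1, the gene of PU.1, held 2 each, Mef2c 2 and Hhex 1.

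Genes of gamma-delta and innate-like T cells followed, with 11 of 16 genes and 3.15 per 100 kb. Zbtb16, the gene of PLZF, held 14 beside 1 region called in all 4 lists. Its members ran from 2.95 to 84.3 in Scd1-deficient and from 4.39 to 97.6 in control DN3 cells, and 11 of 14 reached 10 in both. Sox5 held 11 over 954 kb and Sox13, a related factor of gamma-delta cells, 4. Il23r, the interleukin-23 receptor, held 4, of which chr6:67431667-67432440 had 63.8 and 80.3. Blk, a Src family kinase of B cells and some gamma-delta T cells, was called in DN3 cells alone. Its 5 members had 121, 69.2, 46.2, 48.0 and 22.0 in Scd1-deficient and 141, 89.9, 62.1, 51.7 and 19.9 in control DN3 cells, its gene ends were called in both DN3 lists and in neither naive list, and there was no naive peak in the gene.

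Genes named for B cells and myeloid cells held some strong members although most of their genes held none. Of 20 B lineage genes 6 held members (30%, at 1.58 per 100 kb), with 7 in Ebf1, 5 in Blk and 3 in Pax5. The strongest Ebf1 member, chr11:44948700-44949800, had 100.3 and 106, and those of Pax5 reached 21.2 and 29.7. Of 20 myeloid genes 6 held members (2.17 per 100 kb). Csf2rb, the common beta chain of the IL-3, IL-5 and GM-CSF receptors, held 3, with 145 and 145 at the strongest. With lists of equal length 4 of 20 B lineage and 2 of 20 myeloid genes held a member, beside 14.1% of all genes. Gene ends were called in Scd1-deficient and control DN3 cells at 4 and 4 of the 7 B cell markers and 5 and 4 of the 7 myeloid markers, and the part of such cells in these members was not tested.

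Transcription factors of the T lineage held members in 17 of 26 genes, at 2.16 per 100 kb, yet held more than 2 times as many regions called in all 4 lists (4.92). Tcf4, an E protein, held 9, Runx1 8, Tox2 7, Tcf12, also an E protein, 6 and Myb 5. All 6 Tcf12 members reached 10 in both lists, the strongest with 63.6 and 58.4. The Runx1 members were weaker, with medians of 7.05 and 17.0. Bcl11b, the factor that seals T cell commitment, held 4 members beside 10 naive-restricted regions, and Ets1, an ETS factor kept throughout T cell life, held 1 beside 6. Genes of T cell receptor signalling held members in 21 of 30 (1.98 per 100 kb). Vav2, a guanine nucleotide exchange factor, led with 12 that followed each other without a naive region between, the strongest with 36.3 and 40.2. Tec, a kinase, held 7 and Nfatc2 4, with 173 and 199 at chr2:168488163-168489251. Most of the other signalling genes held 1 or 2.

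PI3K, small GTPase and adhesion genes, which are long, held members in 22 of 30 but at 1.74 per 100 kb. Arhgap26 held 22, Tiam1, a Rac exchange factor, 14 and Elmo1, an engulfment and migration adaptor, 9. The strongest Tiam1 member, chr16:90069015-90069974, had 125 and 170. Akt2 held 4 and no region called in all 4 lists, and Pik3ca also held 4. Of 29 cell cycle and survival genes 9 held members (2.50 per 100 kb), chiefly Cdk6, the D-cyclin-dependent kinase, with 10 and Ccnd3, cyclin D3, with 4. Members of Cdk6 had medians of 7.02 and 8.16 and reached 24.3 and 25.5, while the strongest in Ccnd3 had 57.7 and 81.8.

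Genes of fatty acid synthesis and desaturation, the pathway of Scd1, held members in 12 of 29 (41.4%), at 2.62 per 100 kb, close to their 2.69 regions called in all 4 lists. Acaca, the acetyl-CoA carboxylase that commits carbon to fatty acid synthesis, held 7, from 4.68 to 82.2 in Scd1-deficient and from 3.25 to 64.1 in control DN3 cells. Acsl1, a fatty acid activating enzyme, held 5, the strongest with 85.5 and 92.4, and Acacb, the mitochondrial carboxylase, 5, the strongest with 46.1 and 39.2. Acsl3 held 4 with none called in all 4 lists, and its strongest had 193 and 212. The desaturase genes Fads2 and Fads3 held 3 and 2. Scd1 itself and Scd2 and Scd4 held none, and Scd3 held 1. Scd1 and Scd2 are short genes whose ends were called in all 4 libraries. Fatty acid oxidation and storage genes held members in 11 of 22 (1.96 per 100 kb) and almost no naive-restricted regions (0.0652 per 100 kb). Pparg, a nuclear receptor of fat storage, held 7 and no region called in all 4 lists, the strongest with 33.7 and 39.0. Mgll, the monoacylglycerol lipase, held 5 and Cpt1a, which carries fatty acids to mitochondrial oxidation, 4.

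Per 100 kb, the remaining T cell lists lay nearer to all genes. The share of genes holding a member was 63.6% for CD8, CD4 and double-positive genes and 50% for naive homing genes. It was 41.9% for cytokine receptor, 40.7% for Wnt and 13.8% for T helper genes, beside 25.3% of all genes. CD8, CD4 and double-positive genes held members in 7 of 11 (1.68 per 100 kb), among them Runx3 with 2. The 1 member in Cd4, chr6:124879409-124880010, had 57.4 and 52.0 with a naive peak 0.776 kb away. Cytokine receptor and JAK-STAT genes held members in 13 of 31 (1.65 per 100 kb), at most 2 per gene, beside 6.03 regions called in all 4 lists per 100 kb. Naive homing and quiescence genes held members in 10 of 20 (1.48 per 100 kb) and 3.32 naive-restricted regions per 100 kb. Wnt genes held members in 11 of 27 (1.29 per 100 kb), with 7 in Tcf7l2 and 4 in Tcf7l1. T helper and effector genes held members in 4 of 29 (1.24 per 100 kb), of which 11 members stood in Rora alone. Members were held by 2 of 24 housekeeping genes (0.590 per 100 kb) and 1 of 19 NK and erythroid genes (0.525). Neuronal, muscle and liver genes, which are long, held members in 12 of 24 (50%), above the share of all genes, but at a low density of 0.305 per 100 kb, beside 0.102 regions called in all 4 lists. Within this last list all 9 Nrxn3 members reached a −log10 q of 10 in both DN3 lists. They ran from 13.6 to 104 in Scd1-deficient and from 13.0 to 114 in control DN3 cells, with medians of 28.5 and 43.4.

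Regions at gene ends were left out of the members by the 1 kb limit, and whether a holding gene also had one did not enter the choice. A gene-end region, meaning a peak within 1 kb of either end of the gene, was called in both DN3 lists at 82.1% of the 5473 holding genes, beside 65.6% of all genes. It was called in both naive lists at 67.3% of the holding genes, beside 56.7% of all genes and 53.1% of genes with no member. Most genes with a DN3-restricted region inside were thus also marked at a gene end in naive cells. By members per gene, the DN3 share was 60.1% at 0 members, 80.5% at 1, 83.2% at 2 or 3, 84.6% at 4 to 7 and 87.1% at 8 or more, and the naive share 53.1%, 67.0%, 67.6%, 67.1% and 70.4%. Both kinds of list took part in this difference between holding and other genes. It held within each class of length: among genes over 200 kb, 76.5% of holding and 41.7% of other genes were called at an end in both DN3 lists, and 52.4% and 19.1% in both naive lists. Among genes of 10 to 50 kb the DN3 shares were 82.8% and 70.8% and the naive shares 69.5% and 65.2%. Among genes up to 10 kb the naive shares were 48.1% and 43.1%.

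**Figure D5:**
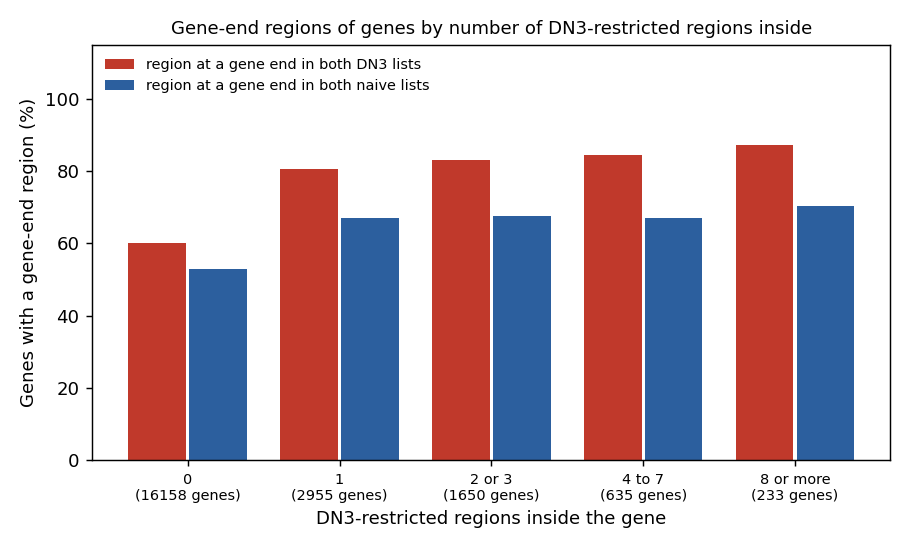
Percentage of protein-coding genes with a region within 1 kb of a gene end (y axis) in both DN3 lists (red) and in both naive lists (blue), by the number of DN3-restricted regions inside the gene (x axis, with the number of genes). From 0 to 8 or more regions the DN3 share ran from 60.1% to 87.1% and the naive share from 53.1% to 70.4%.

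A smaller group of holding genes had no naive peak at all, either in the gene or within 1 kb of it. There were 781, or 14.3% of the holding genes, beside 7161, or 33.1%, of all genes, of which 4087 were at most 10 kb long. Of the 781 genes, 68 held at least 4 members. Dscaml1, a neuronal adhesion molecule, held 12 and Myo16, an unconventional myosin, Phactr1, an actin and phosphatase regulator, and Ptprm, a receptor phosphatase, 10 each. Clmn held 9, and Limch1, Mylk, the myosin light chain kinase, Myo18b, Trabd2b and Zfp423 held 8 each. Gata4 and Tbx5, transcription factors of the heart, held 7 each.

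The members were spread along the genes. For genes with a known strand, 17.2%, 20.5%, 20.9%, 21.5% and 19.96% of 9841 member positions fell in 5 equal parts of the gene counted from the 5′ end. Regions called in all 4 lists leaned toward the 5′ side, with 19.1%, 23.0%, 21.2%, 19.9% and 16.7%, and naive-restricted regions more so, with 21.1%, 24.8%, 22.2%, 17.5% and 14.5%. The median distance from the 5′ end was 42.2 kb for members, 30.5 kb for regions called in all 4 lists and 36.4 kb for naive-restricted regions. By chromosome, the X chromosome held 118 members, or 2.58 per Mb of gene body, beside 12.5 on the autosomes, which ranged from 9.42 to 16.2. Regions called in all 4 lists were also sparser there, with 5.06 and 13.6 per Mb. The ratio of members to regions called in all 4 lists was 0.511 on X, under the autosomes' range of 0.710 to 1.21. The sex of the mice was not used here.

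The 2 genotypes entered the choice together. Of the 90270 union regions, those inside genes called in a DN3 list of 1 genotype alone, with no naive peak, numbered 2865 for Scd1-deficient and 3288 for control cells. These had a median −log10 q of 4.84 and 6.07, beside the 17.0 and 19.9 of the members. A call in 1 list alone favours peaks near the limit of the caller, so this difference was partly built in by the choice. At the limits of the choice, the members in Psmd5 (1.001 kb from a gene end, −log10 q 16.5 and 21.7), Anxa2 (1.001 kb, 58.8 and 40.3) and Uxs1 (1.002 kb, 72.7 and 79.5) were just inside the 1 kb limit, and DN3-restricted regions in Aoc1 (0.999 kb, 10.3 and 35.7), Lrp1 (0.998 kb, 18 and 16.4) and Tnfrsf13b (0.998 kb, 3.17 and 2.14) were just outside. Within 100 bp beyond the limit there were 97 members, and within 100 bp short of it 98 DN3-restricted regions in gene bodies were left out. The weakest calls were those of the Rap1gap member in the Scd1-deficient list (1.37) and of the Tmem131l member in the control list (1.39). The members closest to a naive peak were in Prkx (7 bp) and Tanc1 (11 bp), and 10 lay within 100 bp of one.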

How the data were processed

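ATAC-seq peaks of 4 mouse libraries, 1 per genotype and cell type, were used. The submitters' processing notes name Trimmomatic, BWA, MACS2 and the build mm10. Versions, settings and read depth were not given in the sources used here. For each peak the authors deposited a score, a fold (its ratio to local background), a −log10 p and a −log10 q, which served to describe, rank or filter peaks of 1 list and never across lists.

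Union regions (1 bp overlap), distances, densities and shares with 95% Wilson intervals were computed with Python 3.11.15, pandas 2.3.3 and SciPy 1.17.1. Gene bodies and the ends of genes of every type came from the RefSeq table of GRCm38.p6, and strand, known for 17274 of 21631 protein-coding genes, and sequences from its start windows. No test was run, since the DN3 against naive calls chose the members and each genotype is 1 library in a cell type. The selection was tested on simulated data.

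The members and the 19 gene lists (433 of 436 symbols matched) were chosen with earlier results of these data known. Genes were named by rule: the 10 with most members, the 10 densest with at least 4, the holders of the 10 strongest members, the 3 genes of each list with most, and members at the limits. Other genes were named after their values were seen. A few genes that the rule takes are not reported here. Alternatives covered peak strength, list length, distances, summits, genotype and width.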

Additional observations from a re-analysis of the deposited data

How the results depend on the processing

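With 12442 members as reported, the count was 8228 when DN3 peaks needed a −log10 q of at least 10, 5000 with lists of equal length and 7990 with regions of at least 500 bp, each alternative leaving fewer peaks or regions to count. It lay from 9574 to 17729 under the others. Genes holding a member numbered 3044 with lists of equal length, against 5473 as reported. The share of DN3-restricted regions inside genes, 48.7%, was 37.5% with a 5 kb limit, 50.5% by summit, 49.4% from the Scd1-deficient lists alone, 47.6% with regions of at least 500 bp and 50.9% when ends of protein-coding genes alone counted, an alternative added after seeing the data. The share of holding genes with a gene-end region in both naive lists, 67.3%, was 69.8% with the 5 kb limit and 65.9% by summit. From 13 to 16 of the 19 lists stayed above all genes per 100 kb, and 26 of 171 list counts moved by over 1.5 times, 21 down and 5 up. With lists of equal length 4 of the 10 genes with most members remained among the first 10, and with regions of at least 500 bp 5. Depth was not given. The search for letters in the members, planned with a window of 300 bp and 200 bp as its alternative, was not run because no genome was used here.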

Other observations

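Many genes held both DN3-restricted and naive-restricted regions. A member and a naive-restricted region stood in the same gene body in 904 genes, which is 16.5% of the genes holding a member and 57.8% of the 1564 genes holding a naive-restricted region inside. Over all 21631 protein-coding genes, 25.3% held a member and 1564 held a naive-restricted region inside. Long genes hold more of either class, and the genes named here were chosen after their values were seen.

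Foxp1, a forkhead factor that keeps T cells quiescent, held 8 members, 18 naive-restricted regions and 37 regions called in all 4 lists within 597 kb. Its strongest member, chr6:99463845-99465232, had a −log10 q of 129 in Scd1-deficient and 124 in control DN3 cells. Bach2, a repressor of effector genes, held 5 members and 16 naive-restricted regions, and Akap13, an anchoring protein of protein kinase A, 5 and 11. Bcl11b held 4 and 10 within 93.7 kb, and Bcl2, the survival factor, 3 and 9. In Foxp1, Bcl11b and Bcl2 no 2 members followed each other without a region called in a naive list between them. Maml2 held 4 members and 8 naive-restricted regions, whereas its paralog Maml3 held 25 and 0.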
